A study of Mus musculus with 12 samples.

Results

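The genes described here encode the pore-forming alpha1 and the auxiliary alpha2delta subunits of high-voltage activated calcium channels: *Cacna1a*, *Cacna1b*, *Cacna1e*, *Cacna1c* and *Cacna1d* (alpha1) and *Cacna2d1*, *Cacna2d2*, *Cacna2d3* and *Cacna2d4* (alpha2delta). They were picked by symbol, and all 9 were found among the 24480 genes of each of 2 count tables. RNA-seq was done on the dorsal lateral geniculate nucleus (dLGN), the relay of the visual thalamus, dissected from newborn (P0) mice. One table compared *Sox2* mutants (Sox2 flox/flox;Ror-alphaCre) with littermates carrying Sox2 flox/flox or flox/+ and no Cre, and the other compared *Nr2f1* mutants (Nr2f1 flox/flox;Ror-alphaCre) with littermates that carried Nr2f1 flox/flox or flox/+ and no Cre. Every group had 3 libraries, each made from the pooled dLGNs of 3 animals of the same genotype. Cre was expressed from the *Rora* locus in postmitotic cells of the sensory thalamus, so that mutants and controls also differed in the presence of the Cre allele, and cells outside this lineage would keep both genes. For *Nr2f1* controls the sample labels were contradictory, naming the Cre allele in one place and its absence in another. The methods of the study state that the controls had no Cre.

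Calcium channels of this class open upon strong depolarisation and let calcium into the neuron. The alpha1 protein forms the pore and sets the type of current: the products of *Cacna1a* (P/Q-type), *Cacna1b* (N-type) and *Cacna1e* (R-type) are best known for transmitter release at presynaptic terminals, and those of *Cacna1c* and *Cacna1d* (both L-type) for calcium entry at soma and dendrites and its signalling to the nucleus. The alpha2delta proteins are extracellular subunits that bring channels to the membrane and take part in the formation of synapses. *Cacna2d1* and *Cacna2d2* encode the binding proteins of gabapentin, and *Cacna2d4* is best known from photoreceptors.

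A differentially expressed gene (DEG) was a gene with a Benjamini-Hochberg adjusted p (false discovery rate, FDR) below 0.01 in the quasi-likelihood test of edgeR, run over all genes of a table. The targeted genes were lower in their own mutants. *Sox2* had a level of 361, 363 and 382 CPM (read counts scaled to library size) in the controls of its line and 116, 150 and 152 CPM in its mutants (log2 fold change -1.40, FDR 4.83e-05), and *Nr2f1* had 311, 370 and 380 CPM in the controls of its line and 105, 151 and 101 CPM in its mutants (-1.57, FDR 3.48e-04). *Sox2* was also lower in *Nr2f1* mutants (-0.55, FDR 0.00635), whereas *Nr2f1* in *Sox2* mutants had a log2 fold change of -0.39 (FDR 0.0559). Total counts ranged from 39293465 to 50095344 per library. Some libraries stood apart from their group: among *Sox2* controls, CTRL_3 was the lowest library for 7 of the 9 channel genes, with a summed level of 10 pan-neuronal markers of 7376 CPM (8346 and 8547 CPM in the other controls) and of 6 fibroblast markers of 1965 CPM (1054 and 1045 CPM). Among *Sox2* mutants, MUT_1 was the highest library for 8 of the 9 channel genes and had 100.9 CPM of 5 pallial markers, against 25.4 and 59.7 CPM in the other mutants and 13.9 to 36.2 CPM in the controls. MUT_3 was the lowest mutant library for 6 of the 9 and had 3318 CPM of fibroblast markers (1563 and 1842 CPM in the other mutants). Without MUT_1 or MUT_3, the same number of channel genes, 3, passed in *Sox2* mutants. Among *Nr2f1* mutants, MUT_A and MUT_C had 2019 and 2452 CPM of fibroblast markers, against 1129 CPM in MUT_B and 811 to 1187 CPM in the controls. The sex of the pooled animals was not balanced, since 4 male-specific genes were at 0 in MUT_A and summed to 32.5 to 97.4 CPM in the other *Nr2f1* libraries.

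In the dLGN of *Sox2* mutants, 3 of the 9 channel genes were DEGs and all 3 were downregulated: *Cacna1c* (57.4% of the control level), *Cacna1d* (68.2%) and *Cacna2d4* (33.7%). Over all 15602 genes tested, 8.08% were DEGs, 4.19% downregulated and 3.9% upregulated (653 and 608 genes; 970 and 559 with offsets for GC content and transcript length). *Cacna1a*, *Cacna1b*, *Cacna1e* and *Cacna2d1* had FDRs between 0.0102 and 0.0114, just above the threshold, with levels of 68.3% to 80.4% of control. No overlap between mutants and controls was seen for 8 of the 9 genes, as for 37.9% of all genes tested, with mutants below controls for 7 and above for *Cacna2d2*. The median log2 fold change of the 9 genes was -0.46 (0.0005 over all genes tested). Without CTRL_3, 7 of the 9 genes were DEGs, and the share over all genes tested rose from 8.08% to 13.7%.

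In *Nr2f1* mutants, 4 of the 9 genes were DEGs, against 2.54% of the 15600 genes tested. *Cacna1c* (79.0% of control), *Cacna2d1* (71.4%) and *Cacna2d3* (64.7%) were downregulated, as 1.32% of all genes were, and *Cacna1d* was upregulated (124%), as 1.22% were (206 and 190 genes; 276 and 169 with the same offsets). Libraries did not overlap for 6 of the 9 genes and for 28.6% of all genes tested. The median log2 fold change of the 9 genes was -0.21 (0.01 over all genes). These 4 calls depended on the libraries and the model used. None passed with the level of the male-specific genes as a covariate (0.538% of all genes tested did). None passed without CTRL_B, CTRL_E or MUT_A, and 1 passed without CTRL_D or MUT_C. Without 1 of these 5 libraries, 0.843% to 1.43% of all genes passed, and without MUT_B 5.5% did. The covariate and each library left out also leave fewer residual degrees of freedom. For all 4 genes mutants and controls did not overlap, and no fold change turned sign in any alternative.

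The change in *Sox2* mutants was then tested against the change in *Nr2f1* mutants, in 1 model over all 12 libraries. *Cacna1d* alone passed, out of the 9 genes, while 1.44% of the 15989 genes tested did, 1.11% with a lower and 0.331% with a higher fold change in *Sox2* mutants. Its changes in the 2 mutants had opposite signs. *Cacna1e* and *Cacna1a* had FDRs of 0.015 and 0.0158 for the difference.

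**Figure D1:**
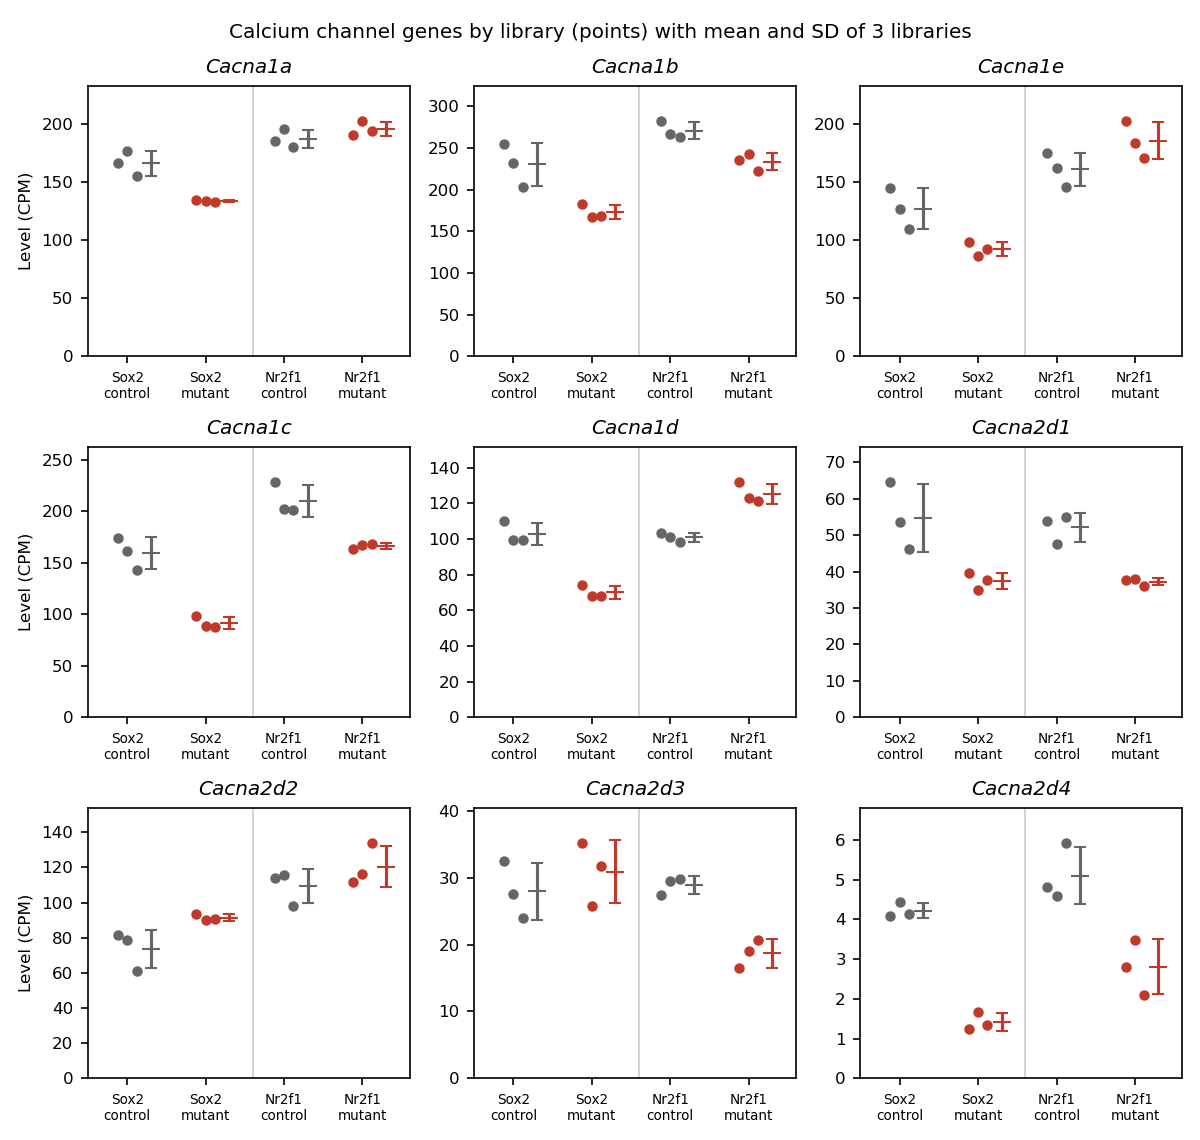
Level in CPM (vertical axes, starting at 0 and scaled per gene) of the 9 channel genes in each library; points are libraries, and bars beside them give the mean and SD of 3 libraries, grey for controls and red for mutants. For *Cacna1d*, mutants lie below all *Sox2* controls but above all *Nr2f1* controls.

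Both L-type genes described here, *Cacna1c* and *Cacna1d*, were DEGs in both mutants. *Cacna1c* (chr6:118587240-119197384, GRCm38) encodes the most widespread L-type pore. In the *Sox2* line it had 174, 161 and 143 CPM in CTRL_1, CTRL_2 and CTRL_3 and 98.6, 88.2 and 87.6 CPM in MUT_1, MUT_3 and MUT_4. All mutants were below all controls, with a log2 fold change of -0.80 (SE 0.08, FDR 3.04e-04). In the *Nr2f1* line the controls CTRL_B, CTRL_D and CTRL_E had 228, 202 and 201 CPM, and the mutants MUT_A, MUT_B and MUT_C had 163, 167 and 168 CPM. Again no mutant reached a control, and the fold change was -0.34 (SE 0.06, FDR 0.00795). The call in *Nr2f1* mutants was lost whichever of the 6 libraries was left out. The changes in the 2 mutants differed by -0.45 (SE 0.10, FDR 0.0265), which did not pass.

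*Cacna1d* (chr14:30039941-30491156) encodes an L-type pore that opens at less depolarised voltages than that of *Cacna1c*. Its level was 110, 99.2 and 99.4 CPM in *Sox2* controls and 74.3, 68.0 and 68.3 CPM in *Sox2* mutants, with no overlap (log2 fold change -0.55, SE 0.07, FDR 8.23e-04). In the *Nr2f1* line it was 103, 101 and 98.4 CPM in controls and 132, 123 and 122 CPM in mutants. Here all mutants were above all controls (0.31, SE 0.05, FDR 0.00597). The call in *Nr2f1* mutants held without MUT_B and was lost without any of the other 5 libraries. The difference between the mutants was -0.86 (SE 0.08, FDR 4.42e-05). Both lines had controls of like level, 98.4 to 110 CPM, although the tables were scaled separately. *Cacna1d* was the only 1 of the 9 genes whose expected counts were fractional, in all 12 libraries. Whether reads were divided between it and another gene, and how many, was not tested.

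Sequence before annotated starts is shown for *Cacna1c* and *Cacna1d*, which were DEGs in both mutants, and for *Cacna1e*. Both *Cacna1d* windows are printed, and the *Cacna1c* and *Cacna1e* windows that hold SOX letters. RefSeq (GRCm38.p6) gave promoter windows for 7 of the 9 genes, 10 windows in all, and the 250 bases before the start were searched on both strands for ACAAAG and ACAATG (cores recognised by SOX proteins) and AGGTCA (the nuclear receptor half-site). ACAAAG was in 1 *Cacna1c* window and in the *Cacna1e* window, against 16.5% of 32851 mouse windows. The other 2 of the 3 *Cacna1c* windows, with GC contents of 50.4% and 82.8%, held none of these letters and are not printed. ACAATG (10.7% of windows) and AGGTCA (14.0%) were in none of the 10. Sequences below are on the minus strand, 5′ to 3′, with ACAAAG or its reverse complement in capitals. The printed *Cacna1c* and *Cacna1e* windows and the first of *Cacna1d* lie inside the annotated gene, at internal starts, and the second of *Cacna1d* lies just outside it.
Cacna1c chr6:119196410-119196659: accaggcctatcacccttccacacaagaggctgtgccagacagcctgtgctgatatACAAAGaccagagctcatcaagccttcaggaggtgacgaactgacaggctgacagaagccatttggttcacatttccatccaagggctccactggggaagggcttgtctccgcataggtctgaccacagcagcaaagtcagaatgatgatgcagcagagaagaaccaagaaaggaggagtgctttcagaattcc
Cacna1d chr14:30353487-30353736: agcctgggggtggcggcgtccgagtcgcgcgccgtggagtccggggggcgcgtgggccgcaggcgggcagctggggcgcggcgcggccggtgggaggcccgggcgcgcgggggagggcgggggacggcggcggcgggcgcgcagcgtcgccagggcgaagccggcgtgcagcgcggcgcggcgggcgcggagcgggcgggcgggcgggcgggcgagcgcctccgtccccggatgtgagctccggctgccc
Cacna1d chr14:30491157-30491406: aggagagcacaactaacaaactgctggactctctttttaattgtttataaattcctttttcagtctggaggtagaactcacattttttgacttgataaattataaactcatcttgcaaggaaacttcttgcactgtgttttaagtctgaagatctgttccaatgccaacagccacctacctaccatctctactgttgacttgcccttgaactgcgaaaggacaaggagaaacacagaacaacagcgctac
Cacna1e chr1:154725921-154726170: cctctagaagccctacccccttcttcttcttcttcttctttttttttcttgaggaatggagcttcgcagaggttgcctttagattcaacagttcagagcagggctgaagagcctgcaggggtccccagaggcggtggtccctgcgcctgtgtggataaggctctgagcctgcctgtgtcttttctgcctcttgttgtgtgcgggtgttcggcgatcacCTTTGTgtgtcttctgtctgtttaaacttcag
The GC content of the 2 *Cacna1d* windows was 86.4% and 39.6%, and the median over all windows was 52.4%.

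None of the presynaptic alpha1 genes *Cacna1a*, *Cacna1b* and *Cacna1e* was a DEG in either line. *Cacna1a* (chr8:84338631-84640251) had 166, 177 and 155 CPM in *Sox2* controls and 135, 133 and 133 CPM in mutants, without overlap (log2 fold change -0.31, SE 0.07, FDR 0.0103). In the *Nr2f1* line its groups overlapped, at 185, 195 and 180 CPM in controls and 191, 202 and 193 CPM in mutants (0.06, SE 0.05, FDR 0.475). *Cacna1b* (chr2:24603860-24763200) was below control in every mutant library of both lines. It had 255, 232 and 203 CPM in *Sox2* controls and 183, 168 and 169 CPM in mutants (-0.41, SE 0.09, FDR 0.0108), and 282, 266 and 263 CPM in *Nr2f1* controls and 236, 243 and 222 CPM in mutants (-0.21, SE 0.05, FDR 0.0395). *Cacna1e* (chr1:154390806-154884785), the R-type pore gene, had 145, 127 and 110 CPM in *Sox2* controls and 98.1, 86.6 and 92.3 CPM in mutants (-0.46, SE 0.10, FDR 0.0114). These groups did not overlap, whereas in the *Nr2f1* line 175, 162 and 146 CPM in controls overlapped 203, 184 and 171 CPM in mutants (0.21, SE 0.08, FDR 0.142).

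Among the alpha2delta genes, *Cacna2d4* (chr6:119236524-119352407) had the largest fold change of all 9 channel genes in both lines, and the lowest level. In *Sox2* controls it had 4.09, 4.43 and 4.15 CPM, from 168 to 187 counts, and in mutants 1.24, 1.67 and 1.35 CPM, from 51 to 73 counts. The groups lay far apart (log2 fold change -1.57, SE 0.18, FDR 5.08e-04). In the *Nr2f1* line it had 4.81, 4.58 and 5.92 CPM in controls and 2.81, 3.49 and 2.11 CPM in mutants. These did not overlap either, but the change did not pass (-0.86, SE 0.20, FDR 0.0321), and it was not shown to differ from that in *Sox2* mutants (-0.70, SE 0.27, FDR 0.209). *Cacna2d4* and *Cacna1c* lie 39.1 kb apart on chromosome 6, and no gene of the tables lies wholly between them. Genes that cross an edge of this gap were not counted.

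*Cacna2d1* (chr5:15934264-16374511) had 64.5, 53.7 and 46.1 CPM in *Sox2* controls and 39.6, 35.1 and 37.6 CPM in mutants, and 53.8, 47.6 and 55.0 CPM in *Nr2f1* controls and 37.6, 38.0 and 36.1 CPM in mutants. No mutant reached a control in either line. The fold change was -0.55 (SE 0.12, FDR 0.0102) in *Sox2* mutants and -0.49 (SE 0.07, FDR 0.00355) in *Nr2f1* mutants, where the call was lost without CTRL_B, CTRL_E, MUT_A or MUT_C. The difference between the mutants was -0.06 (SE 0.14, FDR 0.908).

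*Cacna2d3* (chr14:28904943-29722775) followed another pattern. Its groups overlapped in the *Sox2* line, at 32.5, 27.5 and 24.0 CPM in controls and 35.1, 25.8 and 31.8 CPM in mutants (0.14, SE 0.14, FDR 0.492). In the *Nr2f1* line it was downregulated, from 27.4, 29.5 and 29.9 CPM to 16.4, 19.0 and 20.6 CPM (-0.63, SE 0.09, FDR 0.00382). This call was lost without CTRL_B, CTRL_D, CTRL_E or MUT_A. The difference between the mutants, 0.78 (SE 0.18, FDR 0.0264), did not pass. *Cacna2d3* lies 317 kb from *Cacna1d* on chromosome 14. *Cacna2d2* (chr9:107399733-107529346) was a DEG in neither line: it had 81.3, 78.5 and 61.3 CPM in *Sox2* controls and 93.7, 89.8 and 90.6 CPM in mutants, all above the controls (0.31, SE 0.10, FDR 0.0562), and 114, 115 and 98.3 CPM in *Nr2f1* controls and 112, 116 and 134 CPM in mutants, which overlapped (0.14, SE 0.08, FDR 0.329).

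**Figure D2:**
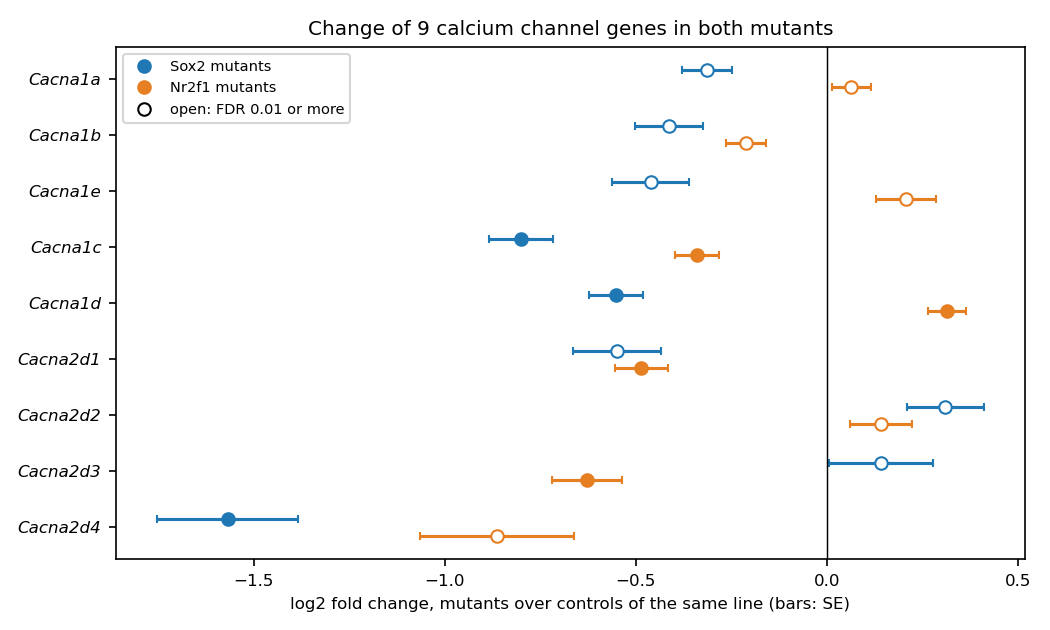
log2 fold change (horizontal axis) of the 9 channel genes in mutants over the controls of the same line, blue for *Sox2* and orange for *Nr2f1* mutants; bars are the SE, and filled points passed an FDR of 0.01. *Cacna1d* lies at -0.55 in *Sox2* and at 0.31 in *Nr2f1* mutants, and *Cacna2d4* lies farthest from 0 in both.

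To compare genes with each other, CPM was divided by the length of the longest transcript. In *Sox2* controls the order was *Cacna1b* (23.8 CPM per kilobase), *Cacna1a* (20.9), *Cacna2d2* (12.7), *Cacna1c* (12.1), *Cacna1d* (11.9), *Cacna1e* (8.52), *Cacna2d3* (7.57), *Cacna2d1* (7.49) and *Cacna2d4* (0.728). Libraries of *Cacna1b* and *Cacna1a* overlapped, as did those of *Cacna2d2*, *Cacna1c* and *Cacna1d* in turn and those of *Cacna1e*, *Cacna2d3* and *Cacna2d1*. *Nr2f1* controls had the same order, from 28.0 CPM per kilobase for *Cacna1b* to 0.879 for *Cacna2d4*. The order depends on the transcripts counted. By mean transcript length *Cacna1c* had rank 3 in *Sox2* and rank 2 in *Nr2f1* controls. *Cacna2d1* then had rank 6 instead of 8 in both. *Cacna2d2* had rank 5 in *Sox2* and rank 4 in *Nr2f1* controls instead of 3.

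Subunit composition was then described by the share of each gene in the summed level per kilobase of its class. Shares of a class have a fixed total, so a lower share of any gene raises others without a change in their level. With 3 against 3 libraries the exact two-sided permutation test cannot go below p = 0.1, the value for every share below whose libraries did not overlap. Among alpha2delta genes the share of *Cacna2d1* was 26.3% ± 1.03 (SD, n = 3) in *Sox2* controls and 17.4% ± 0.0514 in mutants, and 20.6% ± 1.97 in *Nr2f1* controls and 16.3% ± 1.55 in mutants. The share of *Cacna2d2* was higher instead, at 44.6% ± 1.72 and 53.5% ± 2.41 in the *Sox2* line and 54.3% ± 3.31 and 66.1% ± 1.68 in the *Nr2f1* line. *Cacna2d3* made up 26.6% ± 0.868 and 28.3% ± 2.64 in the *Sox2* line, with overlap, and 22.6% ± 1.54 and 16.1% ± 0.808 in the *Nr2f1* line, without. For *Cacna2d4* the shares were 2.59% ± 0.39 and 0.839% ± 0.19 in the *Sox2* line. They were 2.54% ± 0.43 and 1.56% ± 0.44 in the *Nr2f1* line, and neither line had overlap. Thus *Cacna2d2* had the largest share in every group.

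Among alpha1 genes, *Cacna1c* had a lower share in both mutants: 15.7% ± 0.243 in controls and 12.4% ± 0.354 in mutants of the *Sox2* line, and 17.7% ± 0.758 and 14.3% ± 0.543 in the *Nr2f1* line. The share of *Cacna1d* overlapped in the *Sox2* line (15.4% ± 0.871 and 14.4% ± 0.165) and was higher in *Nr2f1* mutants (12.9% ± 0.202 and 16.4% ± 0.586). The presynaptic genes shifted too. In the *Nr2f1* line *Cacna1b* was at 31.2% ± 0.504 in controls and 27.4% ± 0.537 in mutants, without overlap. *Cacna1e* was at 14.1% ± 0.933 in *Nr2f1* mutants, 2.11 percentage points above the controls, and *Cacna1a* at 27.2% ± 1.68 in *Sox2* controls and 30.1% ± 0.973 in mutants, both without overlap. The other shares, *Cacna1a* in the *Nr2f1* line and *Cacna1b* and *Cacna1e* in the *Sox2* line, overlapped. The summed alpha1 level was 77.2 ± 6.43 CPM per kilobase in *Sox2* controls and 56.0 ± 2.21 in mutants, which did not overlap, and 90.0 ± 3.59 and 88.3 ± 2.38 in the *Nr2f1* line, which did. The summed alpha2delta level overlapped in both lines, at 28.5 ± 4.15 CPM per kilobase in *Sox2* controls and 29.5 ± 1.88 in *Sox2* mutants, and 34.7 ± 0.952 in *Nr2f1* controls and 31.4 ± 2.33 in *Nr2f1* mutants.

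**Figure D3:**
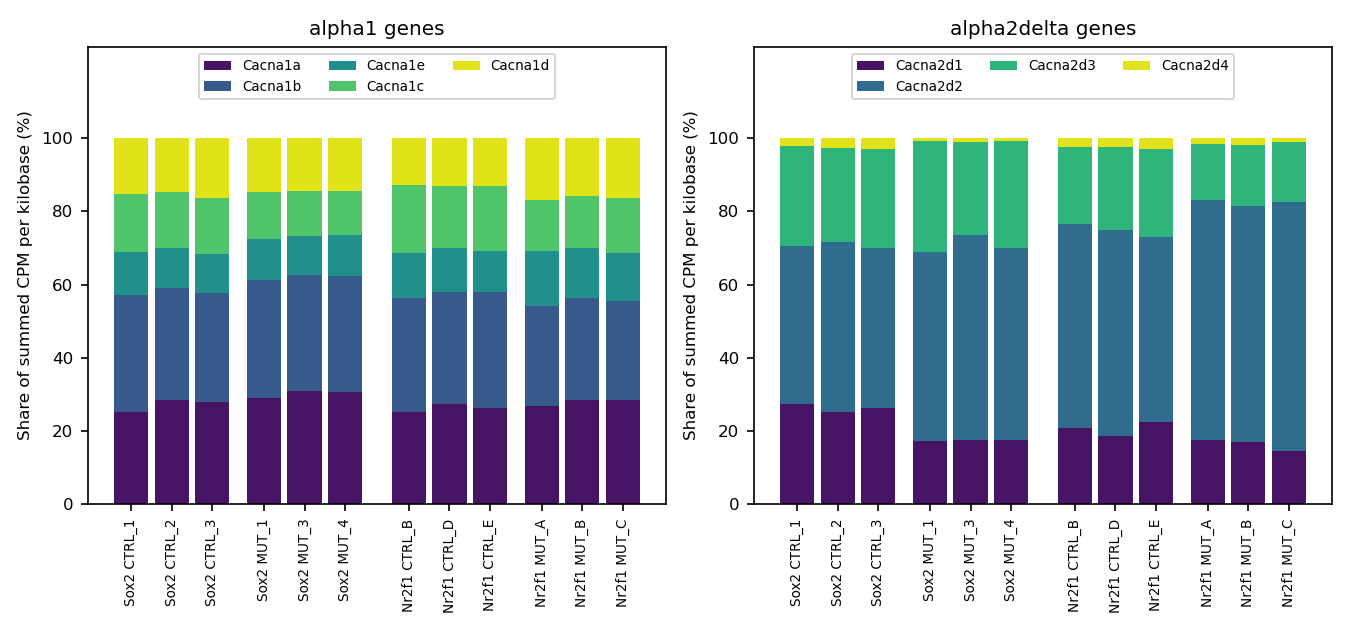
Share (vertical axis, %) of each gene in the summed CPM per kilobase of the 5 alpha1 genes (left) and the 4 alpha2delta genes (right), 1 bar per library, controls before mutants in each line. The *Cacna2d2* segment is taller in mutants than in controls of both lines, and the *Cacna2d4* segment is the smallest in every bar.

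Of 71 other genes of calcium channel function, 69 were tested in *Sox2* mutants, with 12 downregulated and 4 upregulated. In *Nr2f1* mutants 68 were tested, with 3 downregulated and 5 upregulated. Over all genes tested, 4.19% were downregulated and 3.9% upregulated in *Sox2* mutants, and 1.32% and 1.22% in *Nr2f1* mutants. *Cacng6* and *Kcnmb3* were below the filter in both lines. The beta subunits are intracellular partners that bring alpha1 proteins to the membrane. Among the 4 beta genes, *Cacnb3* was upregulated in *Sox2* mutants (186 ± 9.04 CPM in controls and 282 ± 33.4 in mutants, SD, n = 3, log2 fold change 0.60) and *Cacnb2* in *Nr2f1* mutants (18.5 ± 0.26 and 29.9 ± 1.67 CPM, 0.69, FDR 5.67e-04). Neither passed the test of the difference between mutants. Of 7 gamma genes tested, whose products include partners of AMPA receptors, *Cacng5* (-1.17) and *Cacng2* (-0.51) were downregulated and *Cacng3* (1.14) was upregulated in *Sox2* mutants, and none was a DEG in *Nr2f1* mutants. *Cacng5* passed the test of the difference (-1.12, FDR 7.79e-04).

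Among the 3 low-voltage T-type pore genes, whose channels carry the burst firing of thalamic neurons, *Cacna1h* was downregulated in *Sox2* mutants (-0.37), and *Cacna1g* (0.30) and *Cacna1i* (0.51) were upregulated in *Nr2f1* mutants. None passed the test of the difference. The other L-type genes *Cacna1f* and *Cacna1s* were not DEGs. Of 12 channel regulators, *Rem2* (-1.03), a small GTPase that inhibits these channels, *Stac2* (-0.51) and *Cabp1* (-0.49, FDR 0.00996) were downregulated in *Sox2* mutants, and none was a DEG in *Nr2f1* mutants.

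**Figure D4:**
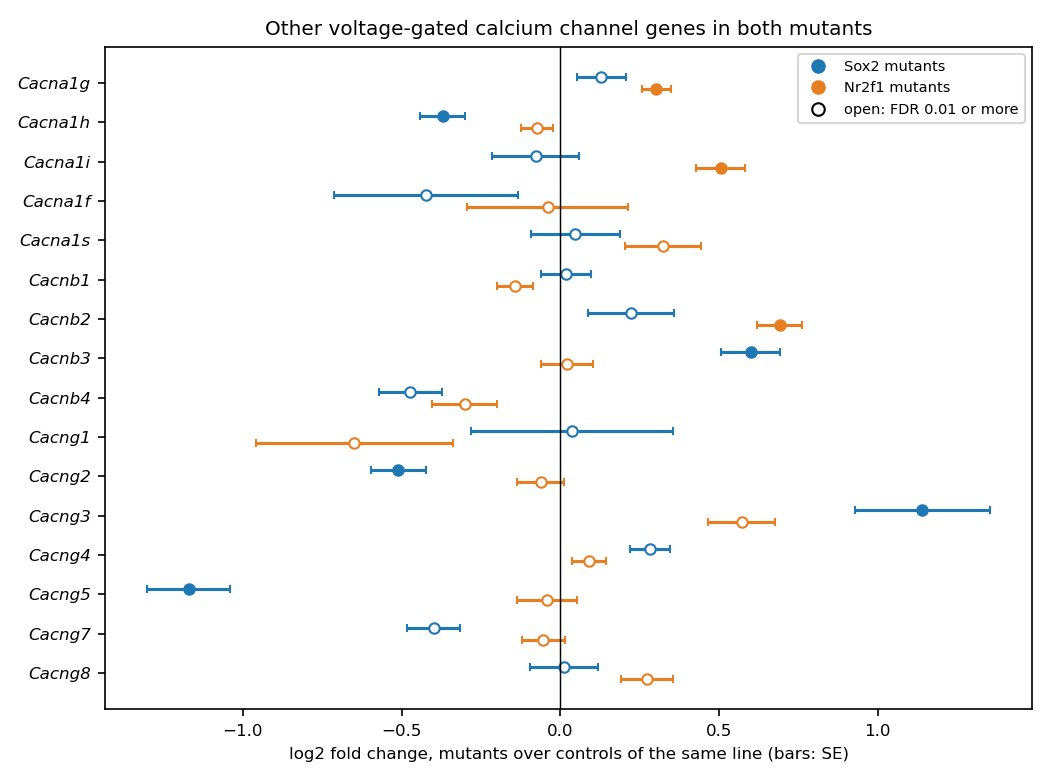
log2 fold change (horizontal axis) of the T-type, other L-type, beta and gamma genes in mutants over the controls of the same line, blue for *Sox2* and orange for *Nr2f1* mutants; bars are the SE, and filled points passed an FDR of 0.01. Filled points lie on both sides of 0 for *Sox2* mutants and only above 0 for *Nr2f1* mutants.

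Active zone proteins hold presynaptic channels close to vesicles. Of their 12 genes, *Rims4* (-0.85), *Bsn* (-0.51) and *Rims2* (-0.42) were downregulated in *Sox2* mutants, and *Unc13b* (-0.52) and *Bsn* (-0.35) in *Nr2f1* mutants. None of the thrombospondin genes, some of whose products bind the *Cacna2d1* protein, was a DEG, and *Comp* among them was not tested in the *Nr2f1* line. Downstream of calcium entry, *Kcnn1* (-1.49), the gene of a calcium-activated potassium channel, was downregulated in *Sox2* mutants. Of the 6 genes of intracellular calcium release channels, *Ryr2* was upregulated in *Sox2* (0.65) and *Nr2f1* mutants (0.45), and *Itpr2* in *Sox2* mutants (0.44). *Camk4*, a nuclear calcium/calmodulin-dependent kinase, was downregulated in both, from 544 ± 70.4 to 210 ± 8.94 CPM (SD, n = 3) in the *Sox2* line (-1.38) and from 532 ± 19.2 to 355 ± 42.3 CPM in the *Nr2f1* line (-0.58). Its changes differed between the mutants (-0.79, FDR 0.00401). Its activating kinase gene *Camkk2* was downregulated in *Sox2* mutants (-0.52), and *Camk2a* was upregulated in *Nr2f1* mutants (0.39).

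Markers of the cells in the dissected tissue moved with the groups, and fewer neurons and less RNA per neuron cannot be told apart in bulk tissue. In *Sox2* mutants, 7 of 11 thalamic glutamatergic markers were downregulated and 1 was upregulated, with summed levels of 2124 to 2713 CPM in controls and 1792 to 1838 CPM in mutants. The downregulated markers include *Rora* (log2 fold change -1.965), the locus that carries Cre in the mutants. It was not a DEG in *Nr2f1* mutants (-0.252, FDR 0.2036), and the part of the Cre allele in its level was not tested. None of these thalamic markers was at 0 in any library. The same held for the pallial and fibroblast markers, so this does not test the dLGN label. Of 10 pan-neuronal markers 3 were downregulated (7376 to 8547 CPM in controls, 6991 to 7351 CPM in mutants). Of 10 astrocyte markers 8 were upregulated (2356 to 2834 CPM in controls, 3576 to 4102 CPM in mutants), as were 7 of 8 microglia markers (131 to 144 CPM in controls, 269 to 311 CPM in mutants). In *Nr2f1* mutants, 2 thalamic markers were downregulated and 2 upregulated, 1 pan-neuronal marker was downregulated (8377 to 8680 CPM in controls, 7263 to 8034 CPM in mutants) and 1 astrocyte marker was upregulated. Summed levels of the *Nr2f1* line did not overlap for astrocyte markers (2002 to 2076 CPM in controls, 2304 to 2499 CPM in mutants), microglia markers (107 to 122 CPM and 132 to 163 CPM, with no marker called) and oligodendrocyte markers (496 to 514 CPM and 529 to 565 CPM). In the *Sox2* line the sums of GABAergic (453 to 515 CPM in controls, 556 to 593 CPM in mutants), oligodendrocyte (576 to 703 CPM and 709 to 820 CPM) and dividing-cell markers (140 to 185 CPM and 196 to 234 CPM) did not overlap either, with 1, 1 and 0 markers called. The part of these shifts in the levels of the channel genes was not tested.

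The channel genes are long, from 116 to 818 kb of genome with a median of 440 kb, while the median of the genes tested was 23.6 kb in the *Sox2* table. Of 2213 tested genes of at least 100 kb, 11.0% were downregulated and 7.0% upregulated in *Sox2* mutants, and of 2217 in *Nr2f1* mutants, 4.42% and 3.38%. The part of gene length in the changes was not tested.

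Genes with the most similar pattern were named for the 3 channel genes with the smallest p in either line, by Pearson's r of log2 CPM over the 12 libraries after centring each line on its controls. The libraries share their group, so that any gene with like shifts in both mutants scores high. For *Cacna1c* they were *Gjd2* (r = 0.988), *Sox11* (0.984) and *Rnf152* (0.981). For *Cacna2d4* they were *Cox11* (0.987), *Sox5* (0.985) and *Immt* (0.983). For *Cacna1d* they were *Dync1i1* (0.985), *Col4a4* (0.984) and *Trpm2* (0.983), which had negative fold changes in *Sox2* mutants (-1.01, -1.69 and -0.63) and positive ones in *Nr2f1* mutants (0.45, 1.23 and 0.29).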

How the data were processed

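mRNA libraries were sequenced as paired reads of 75 bases. Per the labels and the methods of the study, the authors aligned reads with STAR to mouse RefSeq transcripts and deposited RSEM expected counts per gene. Strand use in counting was not given in the sources used here, so whether reads of overlapping antisense genes were kept apart is not known. Of these expected counts 7.77% were not whole, and they were rounded. Columns were assigned to a group by name, and no unused sample column remained. Per line, counts were filtered (filterByExpr, minimum count 10, minimum total 15), scaled by TMM and tested with the quasi-likelihood test of edgeR 4.0.16 (R 4.3.3) and called at an FDR (Benjamini-Hochberg, every tested gene included) below 0.01; the interaction of line and genotype was tested over 12 libraries. The SE of a fold change is its absolute log2 value divided by the square root of the F statistic of that test. CPM values are after TMM, scaled separately per table. Log2 CPM for likeness used a prior count of 2. Transcript lengths came from GENCODE vM21, matched to RefSeq. DESeq2 1.42.0 was an alternative. Replicates differed beyond sampling noise (chi-square per degree of freedom 10.8 to 39.6), and p-values measure the spread between pools. Scripts were tested on simulated data. All 9 channel genes were named. Of the 71 other genes, those called in either line or for the difference, or filtered in both, were named. Members and lists were chosen with earlier results of these data known.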

Additional observations from a re-analysis of the deposited data

Results flagged for a closer look

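*Cacna1d* stands out because its change differed between the 2 mutants by the test of the interaction of line and genotype (edgeR quasi-likelihood test). The change in *Sox2* mutants minus the change in *Nr2f1* mutants was -0.86 on the log2 scale (SE 0.08, FDR 4.42e-05), and it passed in 20 of 20 alternatives, with values from -0.90 to -0.80. All 3 *Sox2* mutant libraries were below and all 3 *Nr2f1* mutant libraries above their controls. The call in *Nr2f1* mutants alone passed in 9 of 16 alternatives.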

How the results depend on the processing

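In *Sox2* mutants *Cacna1c*, *Cacna1d* and *Cacna2d4* were DEGs in 17 of 17 alternatives. The number of the 9 channel genes called was 3 (8.08% of all genes tested). It became 7 at an FDR of 0.05 (19.8% of all genes), with DESeq2 (15.8%), the likelihood ratio test (15.1%), edgeR's exact test (14.9%), 1 fit over 12 libraries (13.0%), offsets for GC content and transcript length (10.1%) or without a filter on low counts (7.85%). It was 6 with at least 10 counts in every library (9.07%) or with legacy=FALSE (8.41%), and 3 to 7 when 1 library was left out (7 without CTRL_3). With the replicate block on shared column numbers it was 5 (10.3%); only 2 pairs share a number (correlations of deviations 0.178 and 0.137), and nothing in the labels says that the numbers pair the pools. No paired analysis was possible for *Nr2f1* mutants or the difference because their columns share fewer than 2 names. In *Nr2f1* mutants the number called was 4 (2.54% of all genes), 6 at an FDR of 0.05 (7.4%) and with DESeq2 (7.13%), 5 with the likelihood ratio (6.98%) and exact tests (6.85%), 3 with 1 fit over 12 libraries (2.69%) or the offsets (2.94%), 0 with male-specific genes as a covariate (0.538%), and 0 to 4 when 1 library was left out; that covariate and each library left out also leave fewer residual degrees of freedom. For the difference it was 1 (1.44% of all genes), 5 at an FDR of 0.05 (3.36%), with DESeq2 (3.4%) or with the likelihood ratio test (3.1%), 2 without a filter (1.39%) or with the offsets (1.48%), and 1 to 4 when 1 library was left out. Among fold changes, signs turned only for uncalled values: *Cacna1a* in *Nr2f1* mutants with the offsets (-0.0022), and *Cacna2d1* for the difference without *Sox2* CTRL_1 or *Nr2f1* CTRL_D (-0.16 to 0.077 when 1 library was left out). The cause was not tested. Over all genes tested, DESeq2 called 2468 in *Sox2* and 1112 in *Nr2f1* mutants and 544 for the difference, against 1261, 396 and 231, and with male-specific genes as a covariate these were 861, 84 and 117. Of 144 alternative values of the share differences, 134 moved by less than the spread between replicates and 10 by more, none of which changed sign. The difference of *Cacna1e* in the *Sox2* line, 0.056 percentage points, changed sign in 4 alternatives that left out a library (-0.22 to -0.031). *Cacna2d4*, at 51 to 272 counts, has the least depth.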
